A study of Nothobranchius furzeri with 3 samples.

Results

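mir-26 and mir-103 are microRNAs (miRNAs) that in other vertebrates lie within introns of protein-coding genes. Listed as nfu-mir-26 and nfu-mir-103, they are 2 of 324 features of a small RNA count table from skin of the short-lived turquoise killifish (Nothobranchius furzeri). They were picked by name for a small range between libraries after scaling, so that the range is given below as a description, with no test. The 3 libraries came from skin of male fish of the strain MZM-04/10p at 39 weeks. They form 1 group, with no second age, tissue, sex or treatment, and are numbered 1 to 3 by accession. The labels do not state that each library is from a separate fish, so the spread between them may be partly technical.

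miRNAs are short RNAs that guide Argonaute proteins to partly matching messenger RNAs, mainly through a seed near their 5′ end, and lower the output of those messages. In mammals the miR-26 genes lie in introns of CTDSP1, CTDSP2 and CTDSPL, which encode small phosphatases of the RNA polymerase II tail. miR-26 restrains the cell cycle in many mammalian cells, and the Polycomb methyltransferase EZH2 is among its known targets. The mammalian miR-103 and miR-107 genes lie in introns of PANK genes, which encode pantothenate kinase, the enzyme that opens coenzyme A synthesis. In mouse, miR-103 and miR-107 are known to act on caveolin-1 and insulin sensitivity, and in human cells on DICER1. The RefSeq gene table for the killifish assembly NfurGRZ-RIMD1 names 5 genes of the CTDSP group (ctdsp2, ctdspl2a, ctdspl2b, ctdspl3 and ctdspla) and 3 PANK genes (pank1a, pank2 and pank4). It names no miRNA feature of the count table, so the position of mir-26 and mir-103 relative to these genes was not analysed here, and the sequences behind the counts were not used.

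The libraries held 5021238, 8545292 and 9590428 counts. Both members were detected in every library and passed the filter of at least 100 counts on average, which left 115 features. The epidermal miRNAs mir-205, mir-203 and mir-8 were detected in every library, and with mir-200, which had 0 counts in all 3, they summed to between 6.31% and 8.73% of counts. Whether reads of mir-200 were counted under another name is not known, since the miRNA annotation is not given. Marker miRNAs of striated muscle summed to between 0.667% and 2.23%, those of leukocytes to between 0.460% and 0.502%, and those of erythroid cells to between 0.0509% and 0.226%. In bulk tissue, fewer cells of a type and less of an RNA per cell cannot be told apart.

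mir-26 was among the most abundant miRNAs of the skin. It had 718230 counts in library 1, 1235899 in library 2 and 1734080 in library 3. These were 14.3% of library 1 (95% exact binomial interval 14.27 to 14.33), 14.5% of library 2 (14.44 to 14.49) and 18.1% of library 3 (18.06 to 18.11), with a mean of 15.6% ± 2.14 (SD, n = 3). Libraries 1 and 2 lay close together and library 3 lay above both, outside their counting intervals. mir-26 ranked 3 in library 1, 2 in library 2 and 1 in library 3. Its counts rose 2.41-fold from the lowest library to the highest, against 1.91-fold for the library totals.

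The order of mir-26 among its neighbours was not fixed at this spread. In mean share it stood between mir-204, known from pigmented epithelia, at 15.7% ± 3.69 and mir-10, a miRNA of the Hox clusters, at 14.6% ± 4.05. The ratio of mir-26 to mir-204 was 0.885, 0.757 and 1.54 in libraries 1, 2 and 3, so mir-26 was the higher in 1 of 3 libraries. The ratio to mir-10 was 0.752, 1.06 and 1.63, with mir-26 higher in libraries 2 and 3. Without library 3, mir-26 averaged below both, at a mean log2 ratio of -0.29 to mir-204 and -0.16 to mir-10. The ratio to mir-181, a broadly expressed miRNA, was 1.07, 1.70 and 1.49, above 1 in 3 of 3 libraries. The ratio to mir-205, a miRNA of stratified epithelium, was 2.50, 2.24 and 2.35, and it moved least of these ratios.

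On the log2 scale the mean ratio of mir-26 was 0.01 ± 0.537 to mir-204, 0.13 ± 0.558 to mir-10, 0.48 ± 0.342 to mir-181 and 1.24 ± 0.0816 to mir-205 (SD, n = 3). A two-sided exact permutation test that flips the signs of the 3 log2 ratios gave p = 1, 0.75, 0.25 and 0.25. The smallest p that this test can give with 3 libraries is 0.25, so none of these ratios could pass 0.05, and after Benjamini-Hochberg adjustment over 5 ratios the lowest exact permutation p was 0.417. The mean log2 ratio to mir-204 and to mir-10 was smaller than its SD, while that to mir-205 was many times its SD. Since mir-26 was picked for a small range, these SDs are not free of that choice and are given as a description. Shares of a library are tied to each other, since a rise of 1 leading feature lowers the share of the rest.

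mir-103 was detected at a far lower level. It had 1619 counts in library 1, 2975 in library 2 and 3599 in library 3. These were 322 counts per 1000000 (CPM) in library 1, 348 in library 2 and 375 in library 3, with a mean of 349 ± 26.4 (SD, n = 3), or 0.0349% of counts. The lowest value was in library 1 and the highest in library 3, and the 95% exact binomial interval of library 1 (0.0307% to 0.0339%) did not reach that of library 3 (0.0363% to 0.0388%). mir-103 ranked 59, 61 and 55 in libraries 1, 2 and 3, and 57 in mean share.

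The features next to mir-103 in level differed from it in spread. Directly above it stood mir-460, at 375, 359 and 364 CPM, with a mean of 366 ± 8.20. Directly below stood mir-1, a miRNA of striated muscle, at 352, 180 and 476 CPM, with a mean of 336 ± 148. Scaled by library totals alone, mir-460 was thus steadier than mir-103, while mir-1 varied over a far wider span at about the same count. The means of mir-103 and mir-1 differed by less than the SD of mir-1, and those of mir-103 and mir-460 by less than the SD of mir-103.

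**Figure D1:**
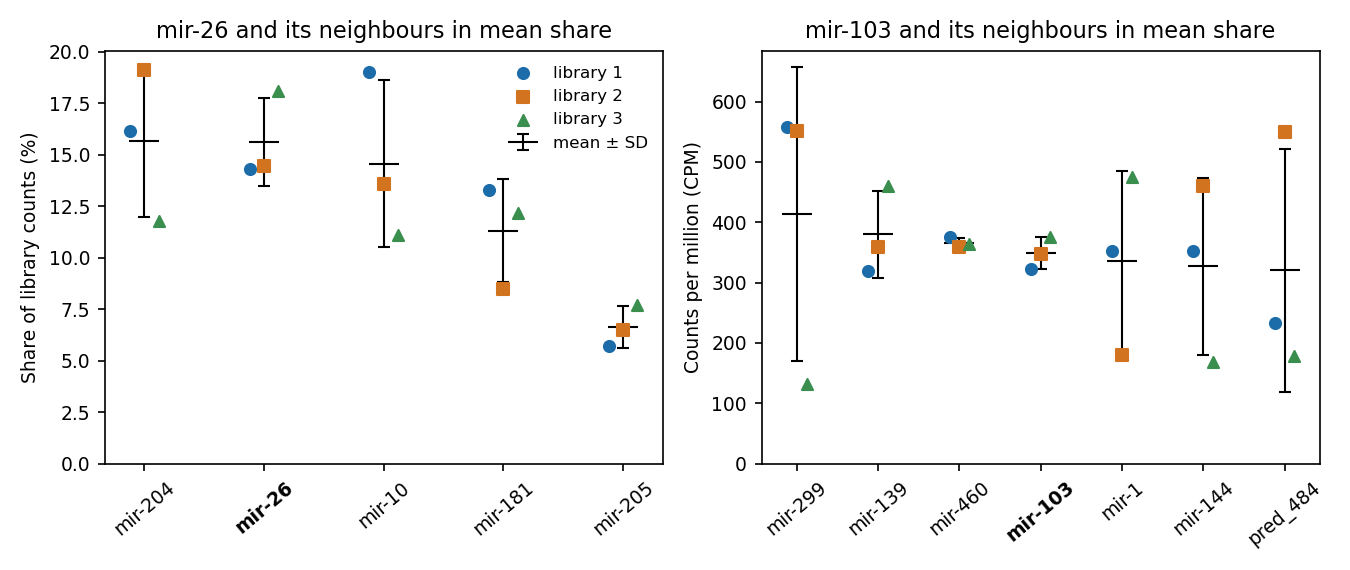
Level of mir-26 (left, percent of library counts) and mir-103 (right, CPM) with the features next to each in mean share; symbols are the 3 libraries, bars mean ± SD. mir-26 lies at 14.3%, 14.5% and 18.1% between mir-204 and mir-10, which spread more widely, and mir-103 at 322 to 375 CPM between mir-460, which spans 359 to 375 CPM, and mir-1, which spans 180 to 476 CPM.

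Within a library, mir-26 exceeded mir-103 by a factor of 444 in library 1 (95% counting interval 422.5 to 466), 415 in library 2 (401 to 431) and 482 in library 3 (466 to 498). The mean log2 ratio was 8.80 ± 0.107 (SD, n = 3), higher in 3 of 3 libraries, with an exact sign-flip permutation p = 0.25, the smallest it allows. This ratio needs no scaling of the libraries. It varied 1.16-fold, with library 3 highest and library 2 lowest. A ratio between different miRNAs carries the capture bias of library ligation, so its size need not be that of the molecules in the skin. mir-103 stood in position 7 of 114 in likeness to mir-26, and mir-26 in position 7 of 114 in likeness to mir-103. Since both were picked for a small range, a nearly constant ratio between them follows from that choice.

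Likeness was measured by the ratio of a feature to the member, as the fold between its highest and lowest library, so that library scaling plays no part. It was taken over the 3 libraries and the 114 other features that passed the filter. The 5 features most like mir-26 were mir-138 (1.05-fold), mir-883 (1.10-fold), mir-456 (1.11-fold), mir-205 (1.12-fold) and mir-139 (1.14-fold). Of these only mir-205 was abundant, at 6.63% of counts. The other 4 held between 0.0022% and 0.0380%, and mir-456 had a mean count of only 175. The median fold over all 114 was 1.92.

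The 5 most like mir-103 were mir-218 (1.03-fold), mir-130 (1.08-fold), mir-3179 (1.08-fold), mir-883 (1.09-fold) and mir-138 (1.12-fold), against a median of 1.89. Of these, mir-3179 had a mean count of only 198, and counting error limits what the order of such small ranges can resolve. mir-218, which in mammals lies within SLIT genes, had 0.581, 0.574 and 0.561 times the counts of mir-103 in libraries 1, 2 and 3. mir-130 had 6.50, 6.95 and 6.99 times its counts. mir-883 and mir-138 were thus among the closest to both members. These 5 are also the features that follow mir-103 in the order of range after scaling, in positions 2 to 6 of 115, so their likeness to it largely restates that they are steady.

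The least alike features were the same for both members. They were mir-202, a miRNA of fish gonads, the feature named mir-716, and pred_770, which carries only a prediction number. The ratio of mir-202 to mir-103 was 0.0531, 0.927 and 0.00834 in libraries 1, 2 and 3. For mir-716 that ratio was 0.814, 11.9 and 2.70, and for pred_770 it was 0.103, 1.01 and 0.370. All 3 were highest in library 2.

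**Figure D2:**
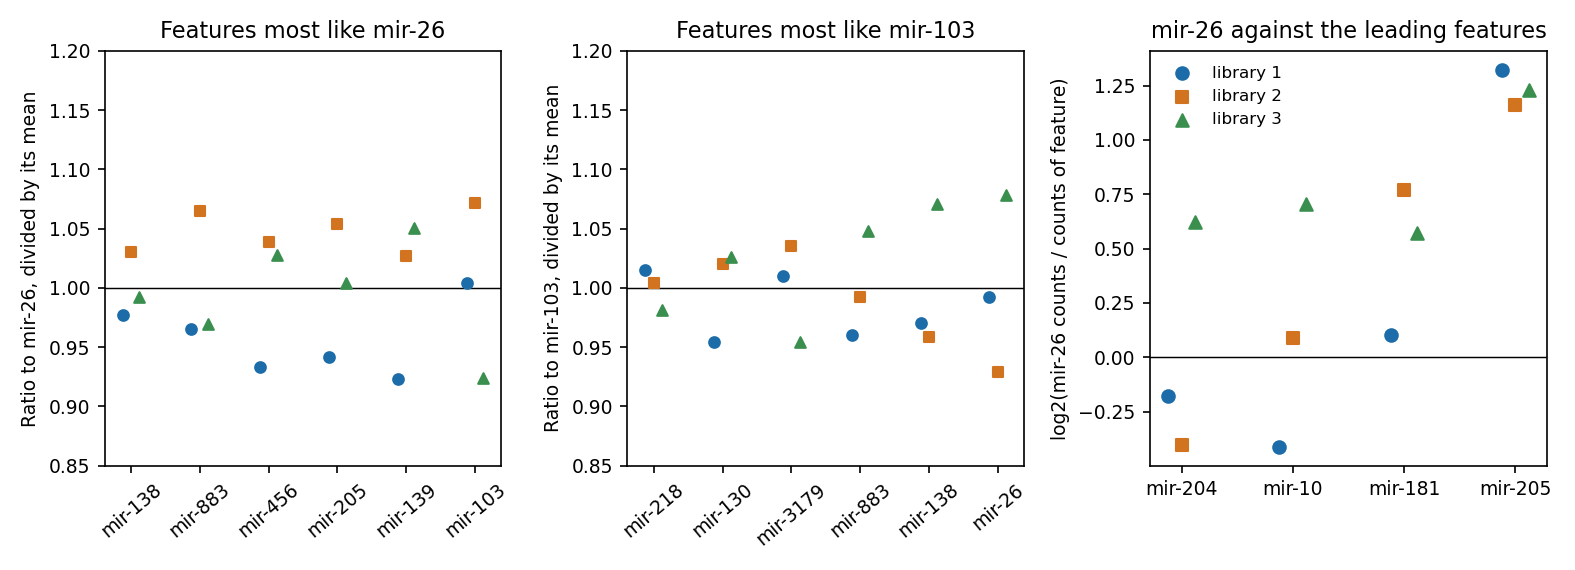
Left and middle, ratio of the 5 most alike features, and of the other member, to mir-26 or mir-103, divided by its mean over the 3 libraries (symbols); right, log2 ratio of mir-26 to 4 other leading features. The ratio of mir-138 to mir-26 spans 1.05-fold and that of mir-218 to mir-103 1.03-fold, while the ratio of mir-26 to mir-204 and to mir-10 lies on both sides of 0.

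After scaling by the trimmed mean of M-values (TMM), which balances the libraries on the bulk of features, mir-103 had 343, 351 and 350 CPM in libraries 1, 2 and 3. Its mean was 348 ± 4.33 (SD, n = 3), a coefficient of variation of 1.24%. The highest library exceeded the lowest 1.02-fold, with a 95% counting interval of 0.963 to 1.09 that includes 1. The relative counting error of mir-103 was between 1.67% and 2.49% in each library, so a coefficient of this size is not resolved at this depth. mir-26 had 152189, 145908 and 168452 TMM-scaled CPM, a coefficient of variation of 7.48%. Its range was 1.15-fold, with library 3 highest and library 2 lowest. Its counting interval, 1.15 to 1.16, lay wholly above 1.

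Both members, by the choice that picked them, varied less than 1.5-fold, as did 35 of the 115 features, or 30.4%. The median range of the 115 was 1.92-fold and the upper quartile 2.68-fold. In the order of range mir-103 stood in position 1, before mir-218 (1.03-fold) and mir-3179 (1.09-fold). mir-26 stood in position 7, between mir-138 (1.12-fold) and mir-460 (1.18-fold). Of the 14 features averaging at least 100000 counts, mir-26 had the smallest range under TMM, against a median of 1.71-fold for these features. As a share of the library total, mir-27 of this class was steadier, with a coefficient of variation of 4.02% against 13.7% for mir-26. Of the 36 averaging from 1000 to 10000 counts, mir-103 had the smallest range under TMM, against a median of 1.98-fold. edgeR's common biological coefficient of variation, over the 158 features averaging at least 10 counts, was 0.456, and 0.371 without library 2.

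**Figure D3:**
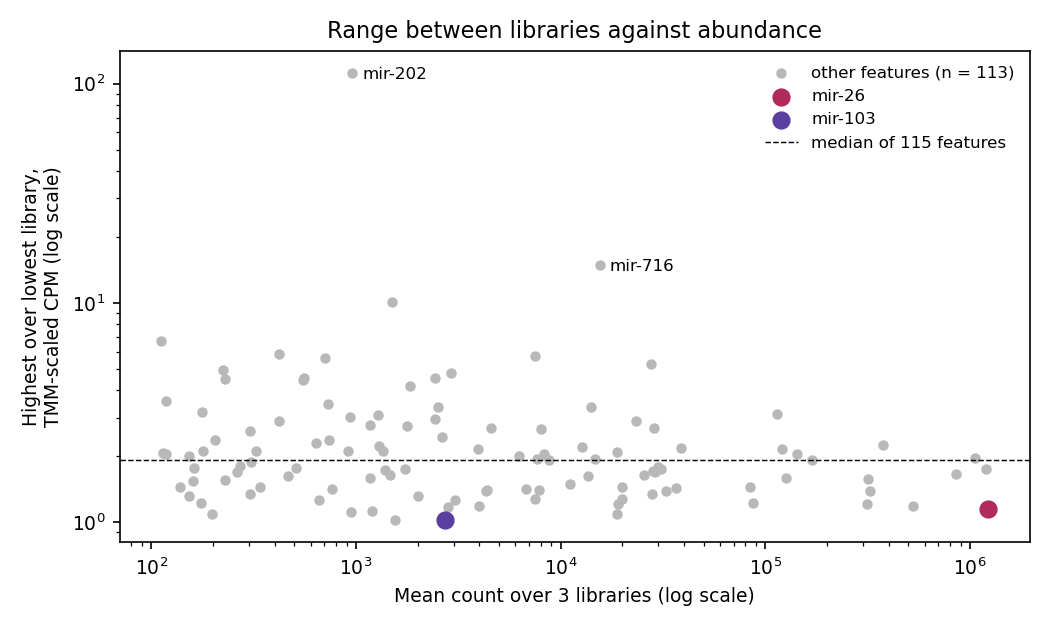
Range between the 3 libraries (highest over lowest TMM-scaled CPM) against the mean count of the 115 features that passed the filter, both axes on log scales. mir-103 lies at 1.02-fold and mir-26 at 1.15-fold, below the dashed median of 1.92-fold, while mir-202 and mir-716 lie far above it.

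The size of these ranges, and for mir-103 also the library that came out highest, depended on how the libraries were scaled. Over 9 scalings, mir-103 varied between 1.02-fold and 1.37-fold and mir-26 between 1.15-fold and 1.59-fold. With plain library totals mir-103 varied 1.16-fold and mir-26 1.26-fold. With the size factors of DESeq2, the median of ratios to a mean library, the values were 1.09-fold and 1.22-fold. The widest were those of upper quartile scaling, at 1.37-fold and 1.59-fold, where mir-26 left the 1.5-fold limit that 23.5% of features met. TMM factors computed with both members left out gave 1.03-fold and 1.15-fold. This comparison could show little, since TMM by default trims the most abundant features and mir-103 is 1 of many that remain.

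Library 3 was highest for mir-26 under all 9 scalings, and library 2 was lowest under all but library totals, where library 1 was lowest. The lead of library 3 could be slight. Scaled by the total without the 4 most abundant features, libraries 1 and 3 lay at 1.053 and 1.055 times the mean. For mir-103 the highest library was not fixed. Library 1 was highest under 4 scalings, library 3 under 3 and library 2 under 2. Library 2 was lowest under 6 scalings and library 1 under 3, so library 2 was most often the lowest for both members. The counting interval of the range of mir-103 included 1 under 2 scalings, both of them TMM variants, and that of mir-26 under 0. In position among the 115 features, mir-103 moved from 1 to 19 and mir-26 from 7 to 42, with upper quartile scaling giving the last position of each.

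Ordered by the widest of the 9 ranges, mir-103 stood in position 7, at 1.37-fold, and mir-26 in position 26, at 1.59-fold, against a median of 2.22-fold. The lead in that order belonged to mir-23, at 1.26-fold, and mir-16, at 1.28-fold. For both members the widest range was that of upper quartile scaling, which set library 2 at 1.23 times its total, against 0.99 under TMM. mir-23 and mir-16 were highest in library 2 after TMM scaling, so their lead rests partly on the upper quartile factors. By pairwise variation, the mean SD of the log2 ratio to each of the other 114 features, which needs no scaling either, mir-103 stood in position 2 at 0.576 and mir-26 in position 13 at 0.592. mir-130 led at 0.575 and the median was 0.727, so the leading values were nearly level. Both of these orders were chosen after the values had been seen. edgeR's feature-wise biological coefficient of variation gave the opposite order, with mir-26 in position 1 of 158 at 0.325 and mir-103 in position 57 at 0.404. These values are drawn towards a trend with abundance, and the members differ widely in abundance.

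**Figure D4:**
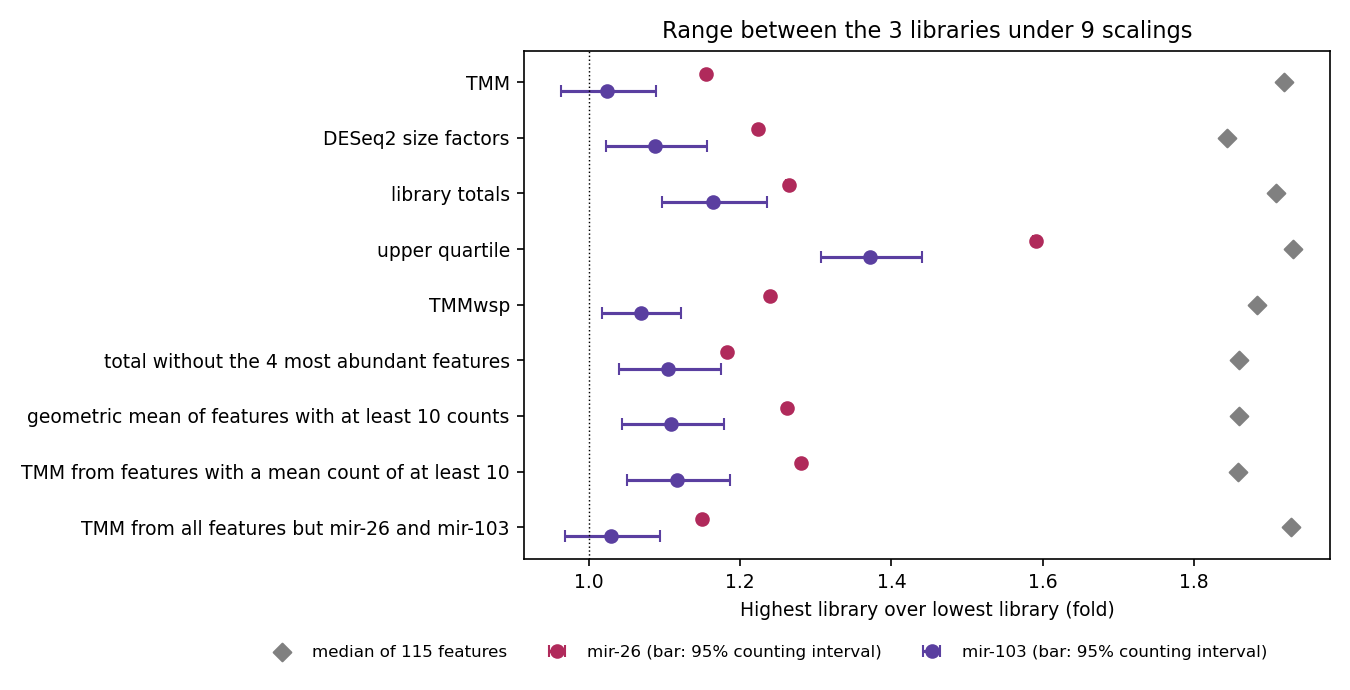
Highest over lowest library for mir-26 and mir-103 under 9 scalings, with 95% counting intervals (those of mir-26 are narrower than the points), and the median of the 115 features (diamonds). mir-103 lies between 1.02-fold and 1.37-fold and mir-26 between 1.15-fold and 1.59-fold, each below the median under every scaling shown.

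Taken as a reference RNA, each member implies its own relative size of the libraries. Counts of mir-26 put library 2 at 1.72 and library 3 at 2.41 times library 1, and those of mir-103 put them at 1.84 and 2.22 times. TMM gave 1.79 and 2.18 times, library totals 1.70 and 1.91 times, DESeq2 size factors 1.999 and 2.29 times, and upper quartile 2.48 and 2.18 times. That mir-103 lay near TMM restates the small range for which it was picked, and both members set library 2 lower than DESeq2 or upper quartile scaling did. Divided by mir-103, 34 of the 114 other features varied less than 1.5-fold, or 29.8%, and divided by mir-26, 28 did, or 24.6%. With mir-16 as the reference 33 did, about as many as with mir-103 and more than with mir-26. With mir-204 as the reference 16 did, and with let-7, a miRNA of developmental timing, 17 did. Scaled by TMM, 35 of 115 did, or 30.4%, and by library totals 30 did, or 26.1%. Division by mir-103 thus left no larger share steady than TMM, and division by mir-26 a smaller share than library totals. Since the members were picked for a small range, their lead over mir-204 and let-7 partly restates that choice.

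Both members are among the miRNAs that mammalian studies often use as reference RNAs. This list and those below were drawn up with earlier results of these data known, so their counts are descriptions. Of its 13 numbers, 11 were features of the table and 10 passed the filter. Of the 8 that were not members, 6 varied less than 1.5-fold after TMM scaling, against 30.4% of all features, and their median range was 1.31-fold. Under upper quartile scaling only 2 of these 8 did, a share close to the 23.5% of all features. The steadiest of them were mir-23 (1.21-fold) and mir-30 (1.23-fold). The exceptions were mir-92, of the miR-17-92 clusters, at 1.59-fold, and let-7 at 2.26-fold. The abundant mir-22 varied 1.39-fold, from 34197 to 47629 TMM-scaled CPM, with library 3 highest as for mir-26. mir-423 had 27, 67 and 77 counts and did not pass the filter.

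miR-103 shares the core of its seed with miR-15 and miR-16, which restrain the cell cycle in mammals. Of the 9 numbers of that seed group, 3 were features here, namely mir-15, mir-16 and mir-103, and no feature is named mir-107. Within this group mir-16 held 59.7% ± 3.26 of counts, mir-15 held 32.1% ± 3.48 and mir-103 held 8.19% ± 0.898 (SD, n = 3). mir-103 was the lowest of the 3 in every library. mir-16 had 7.32, 8.24 and 6.49 times and mir-15 3.25, 4.73 and 3.92 times the counts of mir-103 in libraries 1, 2 and 3, so both were highest against it in library 2. After TMM scaling mir-16 varied 1.28-fold and mir-15 1.49-fold. Of the miR-26 family list, mir-26 was the only feature in the table.

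A list of 38 miRNA numbers that in mammals lie within a host gene, in at least 1 copy, held 27 features, of which 23 passed the filter. Of the 21 that were not members, 12 varied less than 1.5-fold, or 57.1% against 30.4% of all features, with a median of 1.43-fold. Their span was wide, from mir-218 at 1.03-fold to mir-499, which lies in a myosin gene, at 3.02-fold. The most abundant, mir-204, varied 1.76-fold, mir-27 varied 1.22-fold and mir-455, whose host is the collagen gene COL27A1, varied 1.93-fold. mir-425 had 2044, 2290 and 5484 TMM-scaled CPM and was highest in library 3. The widest of these, mir-499, stood in position 93 of the 115 features. Under upper quartile scaling 9 of the 21 varied less than 1.5-fold, or 42.9% against 23.5% of all features. The steady reference candidates mir-16, mir-23, mir-24, mir-25 and mir-30 are also in this list, so the counts of both lists rest partly on the same features. Features within a list are not all separate cases either. The steady mir-23, mir-24 and mir-27 belong to a cluster that is co-transcribed in other vertebrates, and mir-23 and mir-24 are in both lists. Whether the killifish copies lie in introns was not analysed here.

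**Figure D5:**
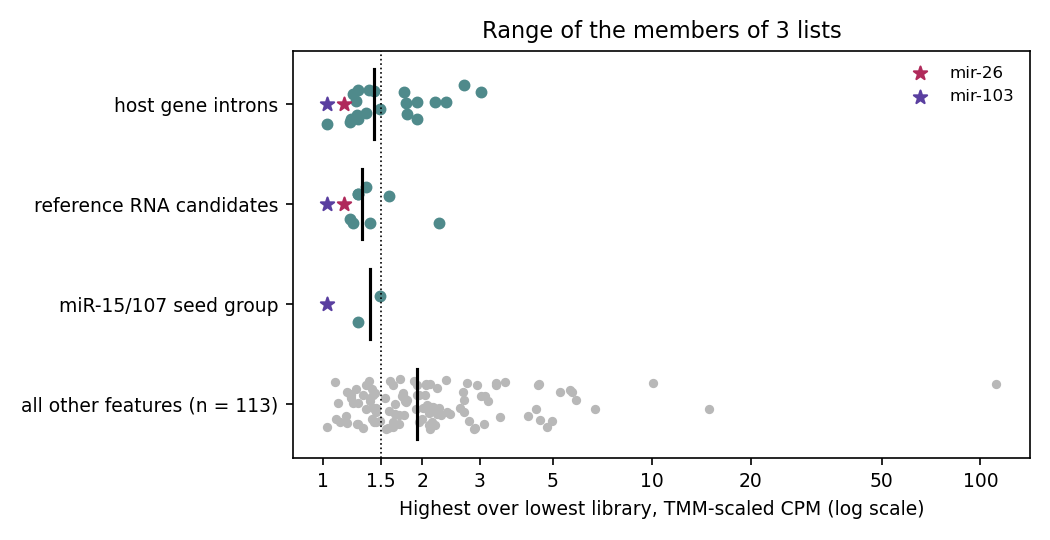
Range between the 3 libraries (highest over lowest TMM-scaled CPM, log scale) of the features of 3 lists and of all 113 other features that passed the filter; stars are mir-26 and mir-103, short bars the medians without them, and the dotted line 1.5-fold. Reference RNA candidates have a median of 1.31-fold and host gene miRNAs one of 1.43-fold, with members of both lists above 2-fold.

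Marker miRNAs of several cell types differed between libraries beside mir-26. Library 3, where the shares of mir-26 and mir-103 were highest, also had the highest sums of epidermal markers (8.73%, against 6.31% in library 1 and 7.14% in library 2) of muscle markers (2.23%, against 1.64% and 0.667%) and of neural markers (0.272%, against 0.140% and 0.245%). The epidermal sum was mostly mir-205, at 5.72%, 6.47% and 7.71% in libraries 1, 2 and 3. The neural sum was mostly mir-128, at 0.103%, 0.201% and 0.227%. mir-9 of the neural list was instead highest in library 2, at 43.7, 71.2 and 56.5 TMM-scaled CPM. That list also holds mir-138 and mir-218, which were named above for their likeness to the members. Mesenchyme and smooth muscle markers were highest in library 2, at 2.71%, against 1.92% in library 1 and 1.89% in library 3. Within that list, mir-199, the most abundant, and mir-214 were highest in library 2. The others, mir-143 and mir-145, were highest in library 1 and lowest in library 2. They had 5836, 3326 and 3580 and 3731, 1112 and 1497 TMM-scaled CPM in libraries 1, 2 and 3. The narrow leukocyte sum also held features that moved apart. After TMM scaling mir-142 and mir-223 were highest in library 2, mir-146 was lowest there, and mir-150 and mir-155 were highest in library 3. Library 3 had the lowest sums of the erythroid markers (0.0509%, against 0.113% and 0.226%) and of the endothelial mir-126 (0.312%, against 0.487% and 0.415%). Their part in the levels of mir-26 and mir-103 was not tested.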

How the data were processed

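Small RNA of 3 skin libraries was sequenced from Illumina TruSeq small RNA libraries, per the labels' protocols. The authors deposited raw counts of reads per miRNA name, unpooled and without normalization. Tools listed by the submitters' processing notes, with no role or settings, are SAMtools 1.3.1-9, BWA 0.7.12-r1039, Trimmomatic 0.36 and bcl2fastq 1.8.4. For the build, the miRNA annotation and the rule for reads with several matches, the sources used here give nothing. Names carry no arm, so mir-26 and mir-103 may each pool several copies or related sequences. No molecular identifiers are mentioned, so reads may include PCR copies, and intervals cover counting error only.

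Shares and CPM used the library total (5021238, 8545292 and 9590428 counts). Shares carry 95% Clopper-Pearson intervals, and ratios of counts an interval from the exact binomial split. TMM factors (0.94, 0.99 and 1.07), the TMM variants, upper quartile factors and the coefficient of variation came from edgeR 4.0.16. The median-of-ratios size factors came from DESeq2 1.42.0, and the remaining scalings were computed directly from the counts. R 4.3.3, Python 3.11.15 and scipy 1.17.1 were used. Only the TMM factors and edgeR's common coefficient of variation were tested on simulated data. Ranges were compared among features averaging at least 100 counts. Named features were the members, their neighbours in level and range, the 5 most and 3 least alike, features of 4 lists, and markers of cell types. Members and lists were chosen with earlier results of these data known. By chi-square test with Benjamini-Hochberg adjustment at least 108 of 158 features differed between any 2 libraries, so none was counted as deposited repeatedly.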

Additional observations from a re-analysis of the deposited data

How the results depend on the processing

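No paired analysis was possible because the study has 1 group of libraries. The range of mir-26 was 1.15-fold with TMM, 1.22 with DESeq2 size factors, 1.26 with library totals, 1.59 with upper quartile, 1.24 with TMMwsp, 1.18 with the total without the 4 most abundant features, 1.26 with the geometric mean of features with 10 or more counts in every library, 1.28 with TMM from features averaging at least 10 counts, 1.15 with TMM from the other features and 1.16 when divided by mir-103. The range of mir-103 was 1.02-fold with TMM, 1.16 with library totals, 1.37 with upper quartile, 1.105 without the 4 most abundant features, 1.11 with the geometric mean, 1.12 with TMM from features averaging at least 10 counts and 1.16 when divided by mir-26, while DESeq2, TMMwsp and TMM from the other features stayed within its counting interval. Division by a member and TMM without the members were chosen after seeing the data. With each library left out, the range was 1.11 to 1.15-fold for mir-26 and 1.005 to 1.05-fold for mir-103, and 53 to 73 features varied less than 1.5-fold against 35. Of the 8 reference candidates that were not members, 6 (75%) varied less than 1.5-fold with TMM and 2 (25%) with upper quartile. Of 21 host gene miRNAs 12 (57.1%) and 9 (42.9%) did. Over all 115 features the shares were 30.4% with TMM and 23.5% with upper quartile. The list counts over scalings were added after seeing the data. With fixed factors a range over fewer libraries cannot be wider, but the factors were computed anew with each library left out. The range of mir-103 was thus wider without library 3, at 1.05-fold, than with all libraries, at 1.02-fold. Without mir-204 in the total, the mean share was 18.5% for mir-26 and 0.0413% for mir-103. The mean log2 ratio of mir-26 without a library was -0.29 to 0.22 to mir-204 and -0.16 to 0.40 to mir-10, negative without library 3 in both. edgeR's coefficient of variation ranged from 0.371 to 0.482 when a library was left out, and DESeq2's median over features, another kind of summary, was 0.3004. The counting error of mir-103, up to 2.49% in a library, limits what its range can resolve.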
